A study of Mus musculus with 6 samples.

Results

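Oligodendrocyte precursor and lineage genes were followed in RNA from the cortex of mice killed at day 10 (d10) after microglia depletion and of control mice. The 9 genes were chosen by name as markers of precursors, of newly formed oligodendrocytes and of the lineage's transcription factors. They were chosen with earlier results of these data known. All 9 were found among the 23366 gene symbols of the expression table, and all 9 were among the 14385 genes whose level allowed a test. The 3 depleted mice, named A4, A5 and A6, carried CX3CR1-CreERT2+/- and iDTR+/-, and the 3 littermate control mice, A1, A2 and A3, carried CX3CR1-CreERT2+/- without iDTR. iDTR is a receptor for diphtheria toxin behind a stop sequence that Cre removes, and Cre here is driven by the CX3CR1 promoter and switched on by tamoxifen, so that microglia and other cells that use this promoter become sensitive to the toxin. Mice of both genotypes received tamoxifen. The depleted mice also received diphtheria toxin. Whether the controls did is not given in the sources used here, and toxin and depletion then cannot be told apart. The strain was C57BL/6, the mice were described as matched for age and sex, and their age is not given in the sources used here. Each mouse gave 1 RNA-seq library, and levels are in FPKM, a fragment count scaled to transcript length and library size, with a further scaling between libraries.

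Oligodendrocyte precursors are dividing glial cells spread through the adult cortex. They carry the receptor PDGFRA, through which the growth factor PDGF-A drives their division and survival, and the surface proteoglycan NG2, made by Cspg4. A precursor that commits to differentiate loses PDGFRA, passes through a stage with the receptor GPR17, and becomes a newly formed cell with ENPP6 and BCAS1 before it makes myelin. The transcription factors OLIG1, OLIG2 and SOX10 are present along the whole lineage, and NKX2-2 acts around the onset of differentiation.

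None of the 9 genes passed the test between the groups, but 8 of them were lower on average in the depleted mice. The groups did not overlap for 5 genes, Pdgfra, Cspg4, Enpp6, Olig1 and Sox10, each with all 3 depleted mice below all 3 control mice. Their means were lower by between 20.7% for Pdgfra and 35.9% for Enpp6. The means of Gpr17 and Olig2 were lower by 5.55% and 11.2% with overlapping groups, Bcas1 was lower in A4 and A5 but not in A6, and Nkx2-2 was higher on average in the depleted mice.

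Promoter sequence is shown for 3 of the genes whose groups did not overlap, Pdgfra, Cspg4 and Enpp6, since these are the genes of that kind with a matched promoter. The 250 bases before the RefSeq start are given on the plus strand of GRCm38.p6. They lie at chr5:75152001-75152250 for Pdgfra, chr9:56864854-56865103 for Cspg4 and chr8:46986637-46986886 for Enpp6. Capitals mark matches on either strand to CANNTG, the E-box to which OLIG factors and other basic helix-loop-helix proteins bind, or to ACAAAG and ACAATG, short letters bound by SOX factors.
Pdgfra: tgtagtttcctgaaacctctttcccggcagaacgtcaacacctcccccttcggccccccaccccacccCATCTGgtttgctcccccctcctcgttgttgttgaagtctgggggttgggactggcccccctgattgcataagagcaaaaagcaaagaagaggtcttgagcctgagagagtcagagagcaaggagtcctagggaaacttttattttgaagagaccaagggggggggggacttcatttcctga
Cspg4: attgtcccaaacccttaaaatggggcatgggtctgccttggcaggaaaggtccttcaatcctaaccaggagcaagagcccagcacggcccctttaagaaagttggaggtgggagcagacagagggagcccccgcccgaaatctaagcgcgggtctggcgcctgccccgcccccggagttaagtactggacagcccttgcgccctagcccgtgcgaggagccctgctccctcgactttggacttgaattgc
Enpp6: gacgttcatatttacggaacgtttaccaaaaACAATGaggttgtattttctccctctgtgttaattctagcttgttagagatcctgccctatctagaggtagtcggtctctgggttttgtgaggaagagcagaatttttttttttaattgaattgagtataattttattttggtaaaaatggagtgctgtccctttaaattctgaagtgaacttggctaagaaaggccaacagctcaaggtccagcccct
The Pdgfra promoter held 1 E-box and the Enpp6 promoter 1 ACAATG, and the Cspg4 promoter held none of the 3 motifs. These letters are common: of 32851 promoters of this length, 66.2% held CANNTG, 16.5% ACAAAG and 10.7% ACAATG. G and C made up 54.4% of the Pdgfra promoter, 60.4% of that of Cspg4 and 38.4% of that of Enpp6. RefSeq promoters were matched for 5 of the 9 genes, the other 2 being Olig2, with 1 ACAATG match, and Nkx2-2, with 3 E-boxes. Not matched were Gpr17, Bcas1, Olig1 and Sox10. RefSeq and GENCODE starts differ for some genes. Against the GENCODE gene models given below, the stretches of Cspg4 and Olig2 run into the gene, and that of Nkx2-2 lies within it.

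The precursor genes come first. Pdgfra stood at 8.37, 9.01 and 8.27 FPKM in the control mice, against 6.16, 7.02 and 7.17 FPKM in the depleted mice, values being given throughout in the order A1, A2, A3 and A4, A5, A6. The groups lay apart by more than 1 FPKM, and A4 was the lowest. On the log2(FPKM + 1) scale, which understates differences of low genes, Pdgfra was lower by 0.30 (log2 fold change -0.30, SE 0.10, 95% interval -0.53 to -0.06), and its adjusted p was 0.4 in limma over all genes tested. Cspg4 was lower in level and less even, at 2.33, 1.99 and 2.20 FPKM in the control mice, against 0.84, 1.77 and 1.96 FPKM in the depleted mice. A4 was far below the rest, and A6 was only just below the lowest control mouse. The log2 fold change of Cspg4 was -0.36 (SE 0.20, 95% interval -0.81 to 0.09, limma adjusted p = 0.555), and without A4 it was -0.15. Pdgfra is also made by fibroblasts of the meninges and Cspg4 by pericytes, the cells that wrap capillaries. In whole tissue, fewer cells of a type and less RNA in each cell cannot be told apart.

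Among genes of committed and newly formed cells, Enpp6 was the lowest in relation to control and Gpr17 hardly differed. Gpr17, a receptor that appears briefly as precursors commit, stood at 10.94, 12.07 and 10.48 FPKM in the control mice, against 12.06, 10.10 and 9.47 FPKM in the depleted mice. A4 was as high as the highest control mouse, and A5 and A6 were below all 3 controls. Its log2 fold change was -0.08 (SE 0.11), and the 95% interval ran from -0.34 to 0.18. Enpp6, a choline phosphodiesterase of newly formed oligodendrocytes, stood at 1.65, 1.48 and 1.85 FPKM in the control mice, against 1.20, 1.09 and 0.90 FPKM in the depleted mice. Every depleted mouse was below every control mouse, with A6 the lowest. Enpp6 had a log2 fold change of -0.37 (SE 0.14, 95% interval -0.70 to -0.04, limma adjusted p = 0.442). With a pseudocount of 0.1 in place of 1 it was -0.60, as its level is close to the pseudocount.

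Bcas1, a protein of early myelinating cells and the most abundant of the 9 mRNAs, stood at 89.53, 83.89 and 82.75 FPKM in the control mice, against 57.23, 70.37 and 87.47 FPKM in the depleted mice. The depleted mice spread widely, and A6 lay within the control range. Its log2 fold change was -0.27 (SE 0.14, 95% interval -0.58 to 0.04), and it was -0.12 without A4. The coefficient of variation of Bcas1 was 21.2% among the depleted mice against 4.25% among the control mice.

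**Figure D1:**
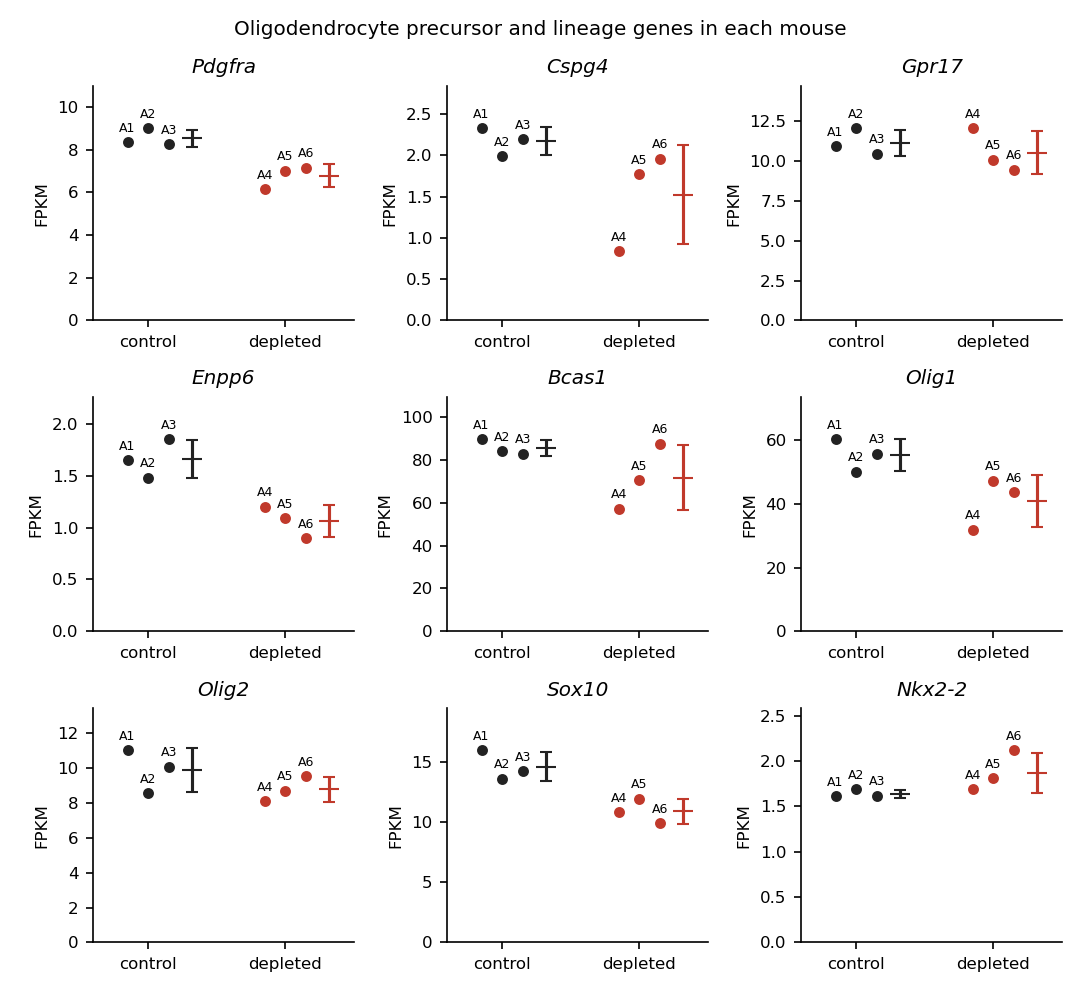
FPKM of each of the 9 genes in each mouse, 1 panel per gene with its own axis from 0; points are mice, and bars mark the group mean ± SD (n = 3). All depleted mice lie below all control mice for Pdgfra, Cspg4, Enpp6, Olig1 and Sox10, while the groups meet or overlap for Gpr17, Bcas1, Olig2 and Nkx2-2.

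Of the transcription factors, Olig1 and Sox10 were lower in every depleted mouse, and Olig2 and Nkx2-2 were not. Olig1, a basic helix-loop-helix factor, stood at 60.32, 50.16 and 55.75 FPKM in the control mice, against 31.89, 47.35 and 43.75 FPKM in the depleted mice. A4 was far the lowest, and A5 came within 3 FPKM of the lowest control mouse. The log2 fold change of Olig1 was -0.44 (SE 0.14, 95% interval -0.77 to -0.11, limma adjusted p = 0.392). Olig2, its neighbour on chromosome 16 and the factor that specifies the lineage, stood at 11.01, 8.55 and 10.08 FPKM in the control mice, against 8.10, 8.70 and 9.52 FPKM in the depleted mice. A5 and A6 were within the control range. The log2 fold change of Olig2 was -0.15 (SE 0.12, 95% interval -0.42 to 0.12).

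Sox10, which switches on myelin genes together with MYRF, stood at 15.95, 13.60 and 14.21 FPKM in the control mice, against 10.81, 11.93 and 9.89 FPKM in the depleted mice. The groups were apart, both were even, and A6 rather than A4 was the lowest. Of the 9 genes it had the smallest limma p, 190th of all genes, with a log2 fold change of -0.39 (SE 0.10, 95% interval -0.63 to -0.15, limma adjusted p = 0.37). Nkx2-2, a homeodomain factor, stood at 1.61, 1.69 and 1.62 FPKM in the control mice, against 1.69, 1.81 and 2.12 FPKM in the depleted mice. A4 equalled the highest control mouse, and A5 and A6 were above. The control mice lay close together, but only about 50 to 73 fragments stood behind each of their values. That is too few for such closeness to count as precision. The log2 fold change of Nkx2-2 was 0.12 (SE 0.13, 95% interval -0.19 to 0.42).

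**Figure D2:**
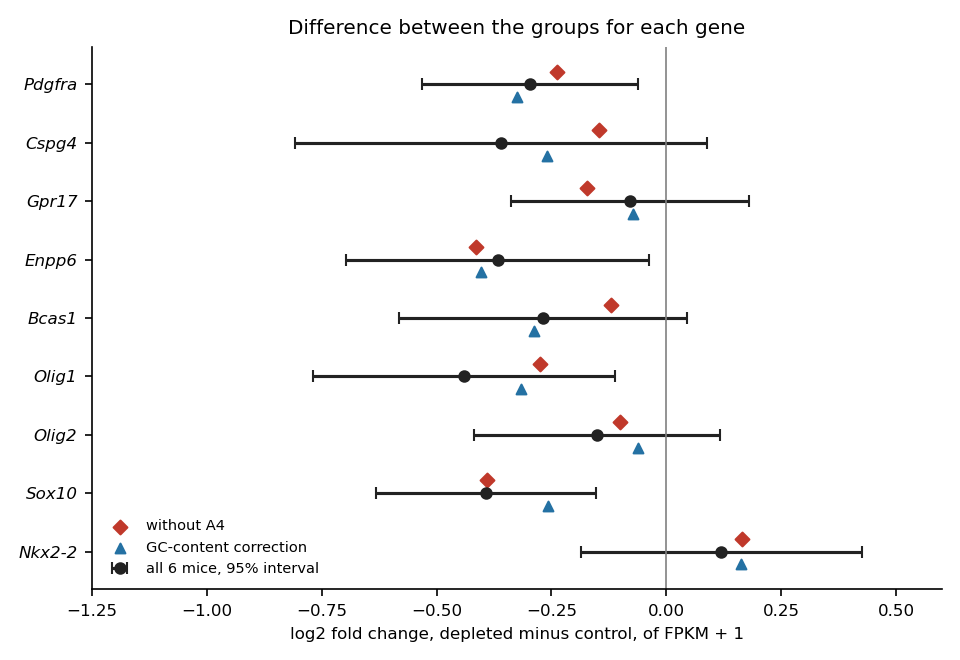
Difference between depleted and control mice for each of the 9 genes, as log2 fold change of FPKM + 1 with its 95% interval from limma (circles), and without A4 (diamonds) or after GC-content correction (triangles). The intervals of Pdgfra, Enpp6, Olig1 and Sox10 lie below 0, those of the other 5 genes include 0, and Nkx2-2 is the only gene with an estimate above 0.

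The 9 genes were chosen with earlier results of these data known, so the counts describe them and give no independent support. Read against all genes, the counts were as follows. At an adjusted p under 0.1, limma called 0 of the 9 genes, and 0.0278% of all genes tested (4 genes). At an unadjusted p under 0.05, 4 of the 9 genes were lower (Pdgfra, Enpp6, Olig1 and Sox10) against 5.74% of all genes, and 0 were higher against 4.79%. That count of 4 was 2 without A1, 2 without A2, and 2 without A3 and A4 together, with Sox10 in each. The share of all genes was lower in these settings too, at 2.98%, 3.95% and 4.81%. Groups that did not overlap were found for 5 of the 9 genes on the lower side, against 9.38% of all genes, and for 0 on the higher side, against 8.21%. A log2 fold change below 0 was found for 8 of the 9 genes and for 52.0% of all genes. The median log2 fold change of the 9 genes was -0.30, and that of all genes tested was -0.0085, with 5th and 95th percentiles of -0.33 and 0.33. The exact two-sided permutation test of each gene gave p = 0.1 for the 5 genes whose groups did not overlap, which is the smallest p that 3 mice against 3 allow. It gave p = 0.2 for Nkx2-2, 0.3 for Bcas1 and Olig2 and 0.4 for Gpr17 in the same exact test.

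The mice did not contribute equally. The median deviation of the 9 genes from the control mean, on the log2 scale, was 0.07, -0.08 and -0.01 in A1, A2 and A3 and -0.40, -0.22 and -0.21 in A4, A5 and A6. A4 was the lowest mouse for 5 genes, Pdgfra, Cspg4, Bcas1, Olig1 and Olig2, and A6 for 3, Gpr17, Enpp6 and Sox10. A4 deviated by -0.78 for Cspg4, -0.77 for Olig1 and -0.57 for Bcas1, but by 0.10 for Gpr17. A4 was also the mouse with the highest summed FPKM of 20 type I interferon response genes, 535.46 against 102.57 in A5, 97.35 in A6 and 37.1 to 52.3 in the control mice. The part of that response in the lineage genes was not tested. Without A4, 8 of the 9 genes were still lower on average, the groups did not overlap for 6 (Gpr17 joined the 5), and the median log2 fold change was -0.17. In that setting 15.7% of all genes had depleted mice below all control mice. Sox10 was at -0.39 without A4, Enpp6 at -0.41, Olig1 at -0.27 and Pdgfra at -0.24.

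**Figure D3:**
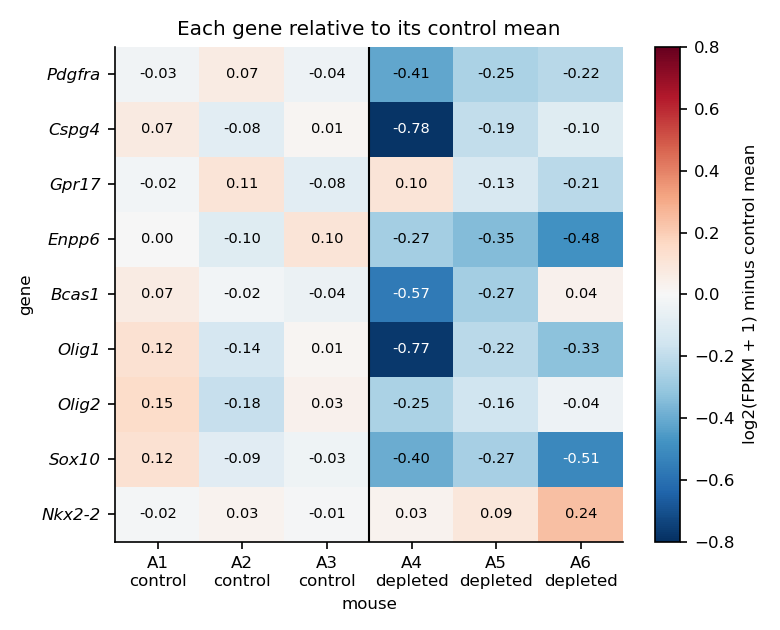
Deviation of each gene in each mouse from the control mean on the log2(FPKM + 1) scale, with blue below and red above the control mean. A4 holds the lowest cells (Cspg4 -0.78, Olig1 -0.77), Gpr17 stays near the control mean in A4, and Nkx2-2 is not below the control mean in any depleted mouse.

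Since FPKM is scaled to transcript length, levels can be set beside each other across genes. In the control mice the order of FPKM was Bcas1, Olig1, Sox10, Gpr17, Olig2, Pdgfra, Cspg4, Enpp6 and Nkx2-2, and the ranges of neighbours overlapped between Gpr17 and Olig2, Olig2 and Pdgfra, and Enpp6 and Nkx2-2. In the depleted mice Nkx2-2 came before Cspg4 and Enpp6, and these 3 neighbours overlapped, as did Sox10 with Gpr17 and Gpr17 with Olig2. The ratio of Olig1 to Olig2 was 5.48, 5.87 and 5.53 in A1, A2 and A3 and 3.94, 5.44 and 4.6 in A4, A5 and A6. The depleted mice were below all control mice in this ratio, A5 by little. Sox10, Cspg4 and Enpp6 divided by Olig2 were likewise below the control range in every depleted mouse, and Nkx2-2 divided by Olig2 was above it. The groups overlapped for Pdgfra, Gpr17 and Bcas1 divided by Olig2. Some gaps were narrow: Enpp6 over Olig2 was 0.148 in A4 against 0.15 in A1, and Sox10 over Olig2 was 1.37 in A5 against 1.41 in A3. All these ratios share Olig2 as denominator, and the share of all genes apart in such a ratio was not counted. The ratio of Gpr17 to Pdgfra was 1.31, 1.34 and 1.27 in the control mice and 1.96, 1.44 and 1.32 in A4, A5 and A6, so the groups overlapped and A4 stood out. The log2 of summed Gpr17, Enpp6 and Bcas1 over summed Pdgfra and Cspg4 was 3.26, 3.15 and 3.18 in the control mice and 3.33, 3.21 and 3.42 in A4, A5 and A6. The groups overlapped in this ratio of later to earlier genes. In A1, Bcas1 held 89.53 of the 102.12 FPKM of the later sum, and Pdgfra 8.37 of the 10.7 FPKM of the earlier sum. The ratio thus speaks mainly for Bcas1 over Pdgfra and says little about Enpp6, Gpr17 or Cspg4.

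Mature myelin genes were lower as well, with 21 of 22 below 0, 7 of them at an unadjusted p under 0.05, 9 with non-overlapping groups on the lower side and 1 on the higher side, and a median log2 fold change of -0.28. None was past the adjusted threshold. The lowest was Ugt8a, an enzyme of myelin galactolipid synthesis, at -0.71, and the highest was Apod, an apolipoprotein, at 0.68, with 273.86 FPKM in A4. The median deviation of these 22 genes was 0.07, -0.004 and -0.04 in A1, A2 and A3 and -0.56, -0.26 and -0.03 in A4, A5 and A6. The summed FPKM of the 22 genes was 3196.27 in A6, against 3464.7 to 3770.0 in the control mice. Mbp held the largest part of that sum, at 1663.19 FPKM in A6 against 1925.02 to 2100.42 FPKM in the control mice. The sum thus speaks mainly for Mbp, and the median deviation in A6 was near 0. Without A4 the median log2 fold change of the mature genes was -0.15, with 19 of 22 below 0. Taken relative to the mature genes of the same mouse, a comparison chosen after the values were seen, 8 of the 9 genes overlapped between the groups. In A6 Sox10 was at -0.49, Enpp6 at -0.45 and Olig1 at -0.30 relative to the mature genes. Bcas1 followed the mature genes closely, at -0.01, -0.01 and 0.06 in A4, A5 and A6. Nkx2-2 was the exception, at 0.58, 0.35 and 0.27 in A4, A5 and A6 against -0.08, 0.03 and 0.03 in the control mice. In A4 and A5 most of this came from the mature median that was taken off, -0.56 and -0.26. Nkx2-2 itself deviated from its control mean by 0.03, 0.09 and 0.24 in A4, A5 and A6. The share of all genes apart on this relative measure was not counted.

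Other precursor genes, newly formed genes and regulators had list medians nearer to the control level than the genes followed above. The lowest precursor gene and the lowest regulator of these lists nevertheless had log2 fold changes below those of all the genes followed above. How much of the mRNA of these lists came from other cells of the cortex was not tested. Their medians thus describe the lists and do not speak for the lineage as a whole. None of the genes in the lists of this paragraph passed the adjusted threshold. Of 14 other precursor genes tested, 12 were below 0 and 2 above, 2 were lower at an unadjusted p under 0.05, 3 had non-overlapping groups, all lower, and the median log2 fold change was -0.14. C1ql1, a secreted C1q-like protein that precursors make, was the lowest at -0.47 (SE 0.11, limma adjusted p = 0.37). It stood at 6.24, 6.49 and 5.91 FPKM in the control mice, against 3.87, 4.26 and 4.48 FPKM in the depleted mice, with the groups apart. The highest was the sialidase Neu4 at 0.17. Of 15 other genes of newly formed oligodendrocytes, 10 were below 0 and 5 above, 1 was lower at an unadjusted p under 0.05, the groups did not overlap for 3 on the lower and 1 on the higher side, and the median was -0.13. Their range ran from -0.30 for Chn2, a Rac GTPase-activating protein, to 0.16 for the kinase Fyn, which was above the control range in every depleted mouse.

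Of 20 other regulators of the lineage tested, 14 were below 0 and 6 above, 2 were lower at an unadjusted p under 0.05 and the median was -0.10. The lowest was the homeodomain factor Nkx6-2 at -0.51, and the highest was Sox9, which astrocytes also make, at 0.32. The groups did not overlap for 3 regulators on the lower side and 1 on the higher side, Sox9. Of 22 growth factor and Notch signalling genes tested, 16 were below 0 and 6 above, and 1 was lower at an unadjusted p under 0.05. The groups did not overlap for 2 on the lower side, near the 9.38% of all genes, and the median was -0.08. The receptor Erbb4 was lowest at -0.37 (SE 0.27) and the cytokine Cntf highest at 0.46 (SE 0.32). Both were uneven: in A5, Erbb4 at 3.15 FPKM was above all control mice and Cntf at 0.93 FPKM was below them. Pdgfa, the ligand of PDGFRA, was named after its values were seen. It stood at 26.24, 25.03 and 27.52 FPKM in the control mice, against 22.07, 23.65 and 21.37 FPKM in the depleted mice. Pdgfa was 1 of the 2 genes of this list with non-overlapping groups, and its log2 fold change was -0.22 (SE 0.08, limma adjusted p = 0.414).

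**Figure D4:**
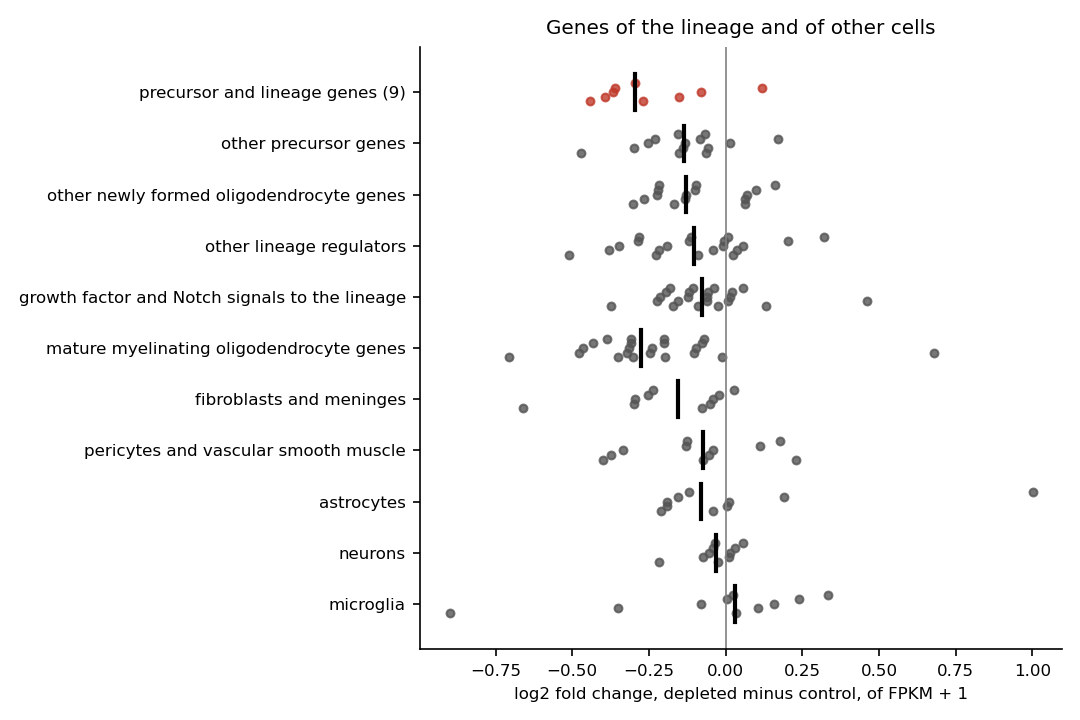
Log2 fold change of FPKM + 1 between depleted and control mice for each tested gene of the lineage lists and of marker lists for other cells; points are genes, and bars mark the median of the list. The 9 precursor and lineage genes have a median of -0.30 and the mature genes of -0.28, while the other precursor genes, newly formed genes and regulators have medians from -0.14 to -0.10.

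Markers of the other cells that could carry Pdgfra and Cspg4 mRNA were counted as well. The groups did not overlap, on the lower side, for 1 of 10 fibroblast and meningeal genes and 1 of 11 pericyte and vascular smooth muscle genes, against 9.38% of all genes. Summed FPKM of 10 fibroblast and meningeal genes ran from 77.7 to 89.1 in the control mice and from 57.5 to 76.8 in the depleted mice, with 9 of 10 genes below 0 and a median log2 fold change of -0.16, which was 0.02 without A6. In that list only Igf2, a growth factor made in the meninges, was lower at an unadjusted p under 0.05, and it had the lowest log2 fold change, -0.66. Dcn was highest at 0.03. Summed FPKM of 11 pericyte and vascular smooth muscle genes ran from 48.5 to 58.8 in the control mice and from 41.7 to 46.8 in the depleted mice, with 8 of 11 below 0, a median of -0.07 and log2 fold changes from -0.40 for Rgs5 to 0.23 for Tagln. Of these 1, Vtn, was lower at an unadjusted p under 0.05, and Tagln was at -0.04 without A4. Each gap between the sums rested on 1 gene: without Igf2 the first sum ran from 53.5 to 65.6 FPKM in the control mice and from 45.6 to 58.9 FPKM in the depleted mice, and without Vtn the second ran from 19.7 to 24.3 FPKM and from 19.9 to 20.5 FPKM. None of the markers tested in these lists was at 0 in any mouse. The part of these cells in the levels of Pdgfra and Cspg4 was not tested.

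The precision of the 9 genes differed with their level. By the spacing of low FPKM values, the control libraries were estimated at about 14.6 to 20.5 M fragments and the depleted libraries at about 10.7 to 13.7 M. For A5, with the lowest estimate, 7.1 M was almost as good. These sizes include the scaling between libraries, so they need not equal the fragments sequenced. By the longest transcript, about 41 to 73 fragments stood behind each Nkx2-2 value, 50 to 169 behind Enpp6 and 93 to 331 behind Cspg4. Counting error alone was then 15.6% for the thinnest Nkx2-2 value and 14.1% for the thinnest Enpp6 value, against 2.12% for Bcas1. The error covers counting only and takes 10.7 M fragments for A5. At 7.1 M the counts of A5 would be lower and its counting error larger. For A6 another, weaker estimate was 22.5 M. Of the genes that differ by sex, Xist stood at 4.74 FPKM in A3 and at 30.86 FPKM or more in every other mouse, and 4 Y-linked genes summed to 5.56 FPKM in A4 and to at most 0.16 FPKM elsewhere. A3 and A4 thus each stood apart in genes that bear on sex, and without both the median log2 fold change of the 9 genes was -0.21. The neuronal markers Slc17a7, Snap25 and Camk2a were at 325.02 FPKM or more in every mouse. Summed FPKM of 10 microglial markers ran from 105.3 to 128.7 in the control mice and from 108.7 to 133.6 in the depleted mice. The median log2 fold change of the microglial list was 0.03, and -0.03 without A4.

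A correction for base composition moved some values. The longest transcripts of Sox10, Olig1, Cspg4 and Olig2 were 61.8%, 61.1%, 59.2% and 58.5% G and C, and those of Pdgfra and Enpp6 48.1% and 42.3%. After a correction for GC content across all genes, chosen after the data were seen, Sox10 was at -0.26, Olig1 at -0.32 and Cspg4 at -0.26, whereas Pdgfra was at -0.33 and Enpp6 at -0.40. Olig2 was at -0.06, against -0.15 without the correction. The groups of Cspg4 then overlapped, as they did after a correction for transcript length, and Olig1 was no longer at an unadjusted p under 0.05.

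The genes lie apart in the genome except for a neighbouring pair. In GRCm38, with the GENCODE gene models, Olig2 is at chr16:91225457-91228677 and Olig1 at chr16:91269772-91271933, both on the plus strand. Pdgfra is at chr5:75152292-75198215, Cspg4 at chr9:56865033-56899870 and Enpp6 at chr8:46986887-47096762, all on the plus strand. Sox10 is at chr15:79154908-79165240, Bcas1 at chr2:170346991-170427845 and Nkx2-2 at chr2:147177546-147194243, all on the minus strand. Gpr17 is on the minus strand of chromosome 18, where its exons overlap those of Lims2 on the other strand. Of the 75-base windows of their transcripts, the share also found in another gene was 0.96% for Gpr17, 4.05% for Pdgfra, 3.98% for Olig1, 7.59% for Bcas1 and 7.17% for Nkx2-2. It was 0% for the other 4 genes. For Nkx2-2 the other gene was Nkx2-2os, which was not among the genes found to overlap it. Whether reads were counted by strand is not stated, so reads of a gene and its antisense partner cannot be told apart.

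Across the 6 mice, Pearson's r of log2(FPKM + 1) was 0.95 between Cspg4 and Olig1, 0.94 between Cspg4 and Bcas1 and 0.90 between Enpp6 and Sox10, and was negative for Nkx2-2 with Enpp6 (-0.87) and with Sox10 (-0.80). These values describe 6 libraries that also differ in group and estimated depth. Of all genes tested, the most like Pdgfra over the 6 mice were Serpind1 (r = 0.996), Cog3 (0.99) and Mllt1 (0.989). Those most like Gpr17 were D14Abb1e (0.998), Soga3 (0.99) and Spry2 (0.99), the last a brake on growth factor receptor signalling. Those most like Sox10 were Tcp11l1 (0.997), Aldh4a1 (0.995) and Chpf (0.995).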

How the data were processed

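Cortical RNA of 3 control and 3 depleted mice was analysed, with groups taken from the labels. The authors made poly(A) libraries, sequenced 75-base read pairs, aligned them with TopHat, quantified known transcripts with RSEM and scaled with TMM; the submitters' processing notes name the mm9 build, and tool versions are not given in the sources used here. The deposited values are FPKM with 2 decimals. The authors tested raw counts with DESeq; counts were not used here. RSEM shares reads among transcripts, so an FPKM need not stand for whole fragments.

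Of 23366 genes, 4451 were at 0 in every mouse, and 14385 with a mean of at least 0.5 FPKM were compared on log2(FPKM + 1) with limma 3.58.1 in R 4.3.3 (lmFit, eBayes with trend), without covariates; p-values were adjusted after Benjamini-Hochberg, with 0.1 as threshold. Single genes also had an exact two-sided permutation test. The labels do not mark litters or batches, and p-values measure the spread between these mice. The fit and the depth estimate were tested on simulated data. For depth, those data held no scaling between libraries and no reads shared among transcripts. Depth came from the spacing of low FPKM values of 1959 genes with 1 transcript of 400 to 1500 bases. GC content, lengths and positions came from GENCODE M21 (GRCm38), not mm9, with 23024 symbols matched, 1292 of them through older symbols, and 99.2% of tested genes with a GC value; loess with a span of 0.3 was used for corrections. Promoters came from RefSeq. The rest used matplotlib 3.10.9, scipy 1.17.1, pandas 2.3.3 and numpy 2.4.6 in Python 3.11.15.

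The genes and lists were chosen with earlier results of these data known. Named are the 9 genes, the highest and lowest tested gene of each other list, list genes past the threshold, and the 3 genes most correlated with Pdgfra, Gpr17 and Sox10; 1 gene that this rule names is not reported here. Pdgfa, Vtn, the cortical markers and the sex-linked genes were added with their values known. The alternatives tried were TPM, median-of-ratios and quantile scaling; a minimum mean of 1 FPKM or none; 0.1 as pseudocount; 0.05 as threshold; robust eBayes, eBayes without trend and array weights; and fits without each mouse or without A3 and A4. Corrections for GC content and transcript length, and marker sums without Igf2 or Vtn, were chosen after seeing the data.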

Additional observations from a re-analysis of the deposited data

How the results depend on the processing

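None of the 9 genes was called under any alternative, 8 were lower on average in all of them, and none changed sign. The 162 single-gene values kept their side of the adjusted threshold, which says little, as few of all genes passed it in any setting. The estimates did move, for Cspg4 between -0.56 and -0.14. Sox10 was at an unadjusted p under 0.05 in 18 of 18 alternatives, Pdgfra and Olig1 in 16, Enpp6 in 13, and Cspg4 and Bcas1 in 1 each, with limma adjusted p from 0.196 to 0.892 for Sox10. The count of the 9 genes at that unadjusted p was 4, between 2 and 5 when 1 mouse was left out (2 without A1, namely Pdgfra and Sox10, and 2 without A2, namely Olig1 and Sox10), and 2 without A3 and A4 together. The share of all genes lower at that p was 5.74%, against 2.98% without A1, 3.95% without A2 and 4.81% without A3 and A4. The median log2 fold change of the 9 genes ran from -0.33 to -0.17 when 1 mouse was left out, with -0.17 without A4. That move without A4 was more than 1 SD between mice. The cause was not tested. Of 234 list medians under the alternatives, 228 moved by less than 1 SD between mice and 6 by more: -0.07 for other precursor genes and 0.03 for neurons without A4, -0.16 for regulators and 0.02 for fibroblasts without A6, 0.31 for cell division at a minimum mean of 1 FPKM, and -0.62 for choroid plexus with a pseudocount of 0.1. The medians of fibroblasts and neurons changed sign there. Over all genes, the calls at an adjusted p under 0.1 were 4, against 20 with array weights, 2 with eBayes without trend, 22, 29 and 8 without A4, A5 and A6, 2 without A1, and 7 without A3 and A4 together. Genes lower at an unadjusted p under 0.05 were 826, against 429 without A1 and 440 without A3, and genes higher were 689, against 360, 375 and 441 without A1, A2 and A3. No paired analysis was possible because the groups share no replicate numbers. With 3 mice a group, the 95% intervals of Cspg4, Gpr17, Bcas1, Olig2 and Nkx2-2 included 0, and none of the 9 genes passed the adjusted threshold. The groups of Cspg4 overlapped after the GC-content correction and after the transcript-length correction.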

Other observations

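Cell division genes were sparse, with 5 of 12 at a mean that allowed a test, and Mki67 and Top2a among those that were not. Birc5, a survivin that dividing cells make, stood at 1.32, 1.18 and 1.54 FPKM in the control mice, against 2.34, 2.04 and 2.95 FPKM in the depleted mice, and its log2 fold change was 0.55 (SE 0.15, limma adjusted p = 0.376). Ube2c, which acts at the exit from mitosis, went the other way, at 1.38, 0.73 and 1.11 FPKM, against 0.54, 0.30 and 0.29 FPKM, with a log2 fold change of -0.58 (SE 0.18, limma adjusted p = 0.378). The groups did not overlap for either gene, neither passed the adjusted threshold, and the median of the 5 genes was 0.06. In which cells these mRNAs lay cannot be told from whole tissue.

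Of 10 astrocyte markers, 6 were below 0 and 4 above, from -0.21 for Aldh1l1 to 1.00 for Gfap, which reached 300.31 FPKM in A4 against 64.48 to 88.28 FPKM in the control mice. Of 10 neuronal markers, 6 were below 0, from -0.22 for Tubb3 to 0.06 for Gad1, and none was at an unadjusted p under 0.05. Without A4, 3 of the neuronal markers were below 0. Of 10 microglial markers, 7 were above 0, and the lowest was Fcrls at -0.90. The direction of the microglial markers rested on A4: without it, 7 of the 10 were below 0. All 9 choroid plexus markers tested were below 0, from -1.91 for Ttr to -0.18 for Sostdc1. The summed FPKM of the list was 243.5 to 418.9 in the control mice and 122.5 to 138.7 in the depleted mice. Ttr and Enpp2 held most of that sum. Ttr ran from 160.05 to 313.68 FPKM in the control mice and from 40.92 to 64.3 FPKM in the depleted mice. Enpp2 ran from 72.67 to 91.99 FPKM and from 56.31 to 75.15 FPKM. The part of the choroid plexus difference in the lineage genes was not tested. The 20 interferon response genes were all above 0, from 0.69 for Ifit2 to 2.69 for Cxcl10, with a median of 1.46 and of 0.98 without A4. In the fit without A4, Ifit2 was at 0.11 and Cxcl10 at 1.67.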
